A study of Mus musculus with 2148 samples.

Results

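The genes described are 9 genes of gut absorptive cells (enterocytes) and liver cells (hepatocytes), followed through single cells of the mouse thymus. They are Hnf4a, Hnf4g, Apoa1, Apoa4, Apob, Fabp1, Fabp2, Vil1 and Lypd8, and they were chosen by symbol. All 9 were found through their Ensembl identifiers among the 48437 genes of the count table, and all 9 passed the filter on low counts that left 39971 genes for the tests. In adult wild-type cells of the mTEChi sort, reads of Hnf4g were found in 72.3% of cells and reads of Hnf4a in 8.39%. Cells with Hnf4g reads more often held reads of Apoa4, Vil1 and Lypd8. Each of the 9 genes was found in a smaller share of Aire-KO than of WT mTEChi, as were 63.8% of all genes. For Fabp1 and Fabp2 the Aire-KO shares were too low for a difference to be read. None of the 9, and 0% of all 39971 genes, passed the test of the genotypes over pools of cells.

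Single thymic epithelial cells were sorted by flow cytometry and each was sequenced as its own RamDA-seq library, a method that covers whole transcripts and also reads RNA without a poly(A) tail. All mice were of the C57BL/6 strain, and the cells fell into 8 groups by sort, genotype and age. The sorts were cortical cells (cTEC, with Ly51 on the surface) and medullary cells with high or low MHC class II (mTEChi and mTEClo). Aire-KO mice lack Aire, and the labels do not name the allele.

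The labels give the mice no number, so cells of a group with the same age and sex were summed into 1 pool, giving 13 pools. The 620 adult WT mTEChi, 31.3% of all cells, came from males of 4 weeks (pool 1, 71.6% of them), males of 5 weeks (pool 2, 12 cells), males of 6 weeks (pool 3, 82 cells) and females of 4 weeks (pool 4, 82 cells). The adult WT mTEClo, 18.0% of all cells, came from males of 8 weeks (pool 1, 60.8% of them), 5 weeks (pool 2, 74 cells) and 4 weeks (pool 3, 66 cells). Single pools made up the other groups. Aire-KO mTEChi (17.1% of all cells) and Aire-KO mTEClo (7.78%) came from males of 5 weeks, and the 77 adult WT cTEC from males of 6 weeks. The mTEChi (8.64%), mTEClo (6.26%) and cTEC (7.02%) of WT newborns came from mice of 1 day, whose sex is given as unknown. A pool may hold cells of several mice and pools may share mice, so the p-values measure the spread between pools. The labels also number 26 experimental batches. Each adult batch held 1 genotype and 1 sort, and the newborn batches held newborn cells alone. Batch thus cannot be told apart from genotype, from age or, among adult cells, from sort. No adult mTEChi pool shares the age of mTEClo pool 1, 8 weeks.

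HNF4A and HNF4G are related nuclear receptors that bind the control regions of gut and liver genes, and many genes of lipid absorption and of lipoprotein assembly are among their targets. In the gut, such genes are switched on as enterocytes mature on the villus, and hepatocytes use HNF4A for a partly shared set. Medullary thymic epithelial cells transcribe many genes that are otherwise restricted to single tissues, part of them through the regulator AIRE, and some medullary cells adopt features of other tissues, gut-like and tuft-like cells among them.

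The letters CAAAGNNCA, a relaxed form of the HNF4 recognition core CAAAGTCCA, were searched on both strands in the 250 bases before the RefSeq start of the 8 genes with a promoter entry (Hnf4g was not matched). The relaxed letters contain the strict ones, so a strict match would count under both. Relaxed matches were found in 3 of the 8 genes, Apoa4, Apob and Fabp2, and in 5.49% of 32851 RefSeq promoters. The strict core was found in 0 of the 8 genes and in 0.384% of the promoters. A match is a description of the letters and not a binding site. The matched stretches that lie ahead of the annotated gene start are shown because these are the promoters of the set that hold HNF4-like letters. They are RefSeq sequence of GRCm38.p6, plus strand, with the match in capitals.
Apoa4 promoter, chr9:46240594-46240695: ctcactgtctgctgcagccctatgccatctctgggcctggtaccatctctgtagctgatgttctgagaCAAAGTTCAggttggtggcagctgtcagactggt
Apob promoter, chr12:7977427-7977647: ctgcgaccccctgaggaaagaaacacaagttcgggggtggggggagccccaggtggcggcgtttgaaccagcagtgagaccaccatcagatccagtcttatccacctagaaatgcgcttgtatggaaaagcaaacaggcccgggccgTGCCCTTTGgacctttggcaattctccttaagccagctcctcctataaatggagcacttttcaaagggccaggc
Fabp2 promoter, chr3:122894822-122895071: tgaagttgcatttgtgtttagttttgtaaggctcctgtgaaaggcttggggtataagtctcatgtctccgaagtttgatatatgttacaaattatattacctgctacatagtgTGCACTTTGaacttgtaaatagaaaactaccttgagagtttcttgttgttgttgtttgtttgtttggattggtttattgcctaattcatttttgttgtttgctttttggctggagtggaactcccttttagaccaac
The first base of the match lay 34 bases before the annotated start of Apoa4, on the plus strand, and 74 bases before that of Apob, on the minus strand. The match of Fabp2 was on the minus strand too.

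Experimental batches 1 and 2 stood apart for Apob. In batch 1 (75 cells of adult WT mTEChi pool 1) and batch 2 (all 66 cells of adult WT mTEClo pool 3), every cell held Apob reads, with a median of 100.9 CPM (quartiles 82.2 and 119.4) in batch 1 and 177.5 CPM (quartiles 143.8 and 275.5) in batch 2. CPM are the reads of a gene per 1000000 reads on genes. In the other 24 batches 0 to 70.7% of cells held an Apob read, with a median of 18.5%. Reads in at least 95% of the cells of both batches, with a median of at most 25% of cells elsewhere, were found for 9 genes of the whole table, Apob, Ins1, Ins2, Il6, Tnf, Cd3g, Postn, Tac1 and Scn2a, which are known from unrelated tissues. Il6, for instance, had medians of 105.98 and 165.6 CPM in the cells of these batches and was found in at most 5.88% of cells of any other batch. The other listed genes did not share this pattern, and Apoa4 was found in 24% and 3.03% of the cells of these batches. The cause was not tested, and values of Apob that include these batches are given without them as well where the difference is more than slight.

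**Figure D1:**
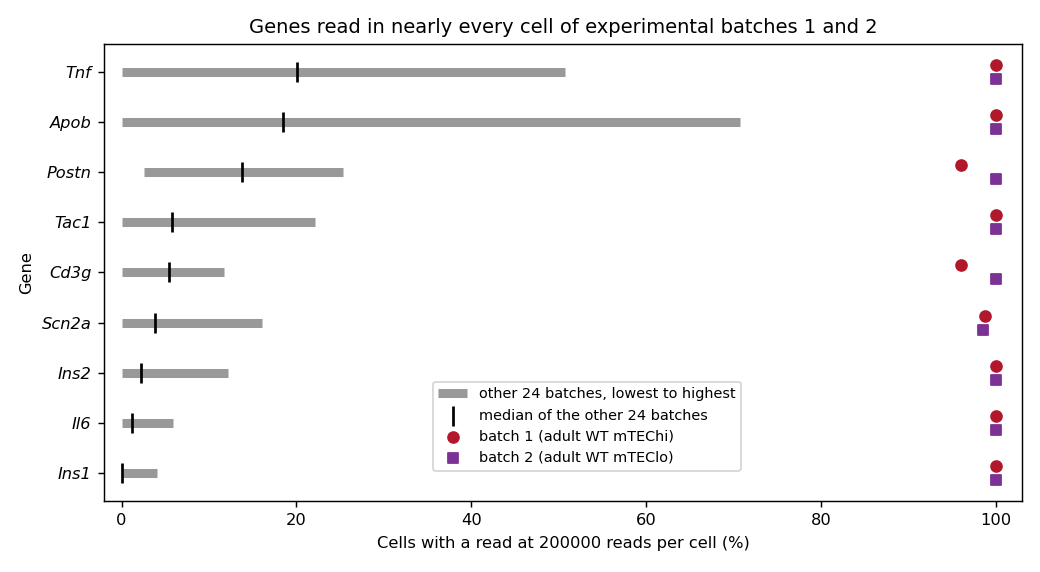
Percent of cells with a read (x axis) for 9 genes found in at least 95% of cells of experimental batches 1 and 2. Batches 1 and 2 are points. A bar runs from the lowest to the highest of the other 24 batches, with a tick at their median. Apob is at 100% in batches 1 and 2 and at 0 to 70.7% in the others.

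A cell had a median of 692880 reads on genes (203010 to 1823784), with group medians from 532926 in Aire-KO mTEClo to 862537 in adult cTEC, and pool sums ran from 7990398 to 351545799 reads. For shares of cells, every cell was first thinned to 200000 reads, and a cell counted at 1 or more reads. Aire reached 1109.7 to 1844.6 CPM in the WT mTEChi pools and 26.1 CPM in Aire-KO mTEChi. The sums of cTEC markers were 3533 and 3679 CPM in the cTEC groups and 240.3 to 416.6 CPM in the adult mTEChi pools. A pool sum cannot tell fewer cells with a gene from less RNA per cell, so shares of cells are given beside it.

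Hnf4g (ENSMUSG00000017688, chromosome 3, 3508030 to 3658052) was the more widely found of the pair of nuclear receptor genes. All 9 genes are protein-coding and lie on the plus strand, and all coordinates are those of GRCm38 with GENCODE M21. Hnf4g reached 72.98, 82.3, 68.9 and 76.99 CPM in adult WT mTEChi pools 1 to 4, 66.1 CPM in Aire-KO mTEChi and 52.9 CPM in newborn mTEChi. It stood at 11.0, 21.9 and 21.1 CPM in adult WT mTEClo pools 1 to 3, 7.67 in Aire-KO mTEClo, 4.13 in newborn mTEClo, 16.3 in adult cTEC and 2.44 in newborn cTEC. Every mTEChi pool of either genotype and age thus lay above every other pool. Its reads were found in 72.3% of WT mTEChi (exact 95% interval 68.6 to 75.7), against 32.5% of adult cTEC, at median depths of 772240 and 862537 reads before thinning. Intervals cover counting error only.

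Hnf4a (ENSMUSG00000017950, chromosome 2, 163506808 to 163572910) was rare. It reached 9.05, 0.125, 24.5 and 18.4 CPM in WT mTEChi pools 1 to 4, 2.42 in Aire-KO mTEChi and 12.2 in newborn mTEChi. In mTEClo it stood at 3.02, 11.3 and 8.67 CPM in the WT pools, 3.87 in Aire-KO and 0.237 in newborns, and the cTEC pools held 1.06 (adult) and 0.287 CPM (newborn). The low value of 0.125 CPM was that of the pool of 12 cells, and the mTEChi and mTEClo pools overlapped. Reads were found in 8.39% of WT mTEChi (interval 6.33 to 10.9) and 2.60% of adult cTEC. A few cells carried much of the sum: 5 of 620 WT cells held 50% of the Hnf4a reads, and the highest cell reached 1826.98 CPM, with 17.2% of the reads. For Hnf4g, 61 cells held the same part.

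The apolipoprotein genes were found in between 27.1% and 49.2% of WT mTEChi. Apoa1 (ENSMUSG00000032083, chromosome 9, 46228580 to 46230466) encodes the main protein of high-density lipoprotein, made in liver and gut, and Apoa4 (ENSMUSG00000032080, chromosome 9, 46240696 to 46243459), its neighbour on the chromosome, encodes an apolipoprotein of gut chylomicrons. Apoa1 reached 38.5, 1.38, 48.1 and 27.5 CPM in the WT mTEChi pools, 8.32 in Aire-KO and 47.97 in newborn mTEChi, against 0.498, 0.934 and 0.043 CPM in the WT mTEClo pools. Apoa4 reached 57.5, 7.01, 47.9 and 46.3 CPM in WT mTEChi, 18.4 in Aire-KO and 39.7 in newborn mTEChi, against 2.64, 5.15 and 0.447 CPM in WT mTEClo. For both genes pool 2, with 12 cells, was the lowest WT mTEChi pool and still lay above every WT mTEClo pool. Apoa4 exons overlap those of Gm47528 and Gm10680 on the opposite strand, and the counting did not use strand, so their reads cannot be told apart. Reads were found in 27.1% (Apoa1) and 42.1% (Apoa4) of WT mTEChi and in 6.49% and 9.09% of adult cTEC.

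Apob (ENSMUSG00000020609, chromosome 12, 7977648 to 8016835) encodes the scaffold protein of chylomicrons and very-low-density lipoprotein. It reached 236.3, 2.25, 170.3 and 167.1 CPM in WT mTEChi, 167.6 in Aire-KO and 11.1 in newborn mTEChi, with 5.63, 0.450 and 192.4 CPM in the WT mTEClo pools. The value of 192.4 CPM belongs to batch 2, and without it the mean of the mTEClo pools went from 66.2 ± 109.4 (SD, n = 3) to 3.04 CPM (n = 2), while that of mTEChi was 144.007 CPM with and 144.103 CPM without batch 1. Apob reads were found in 49.2% of WT mTEChi (42.2% without batch 1), 35.8% of WT mTEClo (21.3% without batch 2) and 6.49% of adult cTEC. Its reads were concentrated in few cells: 8 of 620 WT mTEChi held 50% of them, the highest cell reached 11941 CPM, and 30 cells had at least 1000 CPM.

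The fatty acid binding protein genes were the least widely found after Hnf4a. Fabp1 (ENSMUSG00000054422, chromosome 6, 71199827 to 71205023), the liver form that is also abundant in gut, reached 7.69, 0.501, 2.72 and 4.43 CPM in the WT mTEChi pools, 3.23 in Aire-KO and 8.33 in newborn mTEChi, with 0.578, 10.5 and 5.52 CPM in WT mTEClo and 5.95 in adult cTEC. Fabp2 (ENSMUSG00000023057, chromosome 3, 122895072 to 122899506), the intestinal form, reached 12.4, 0, 3.02 and 5.81 CPM in WT mTEChi, 0.232 in Aire-KO and 17.2 in newborn mTEChi, with 0.827, 0.967 and 0.149 CPM in WT mTEClo. The value of 0 is that of the pool of 12 cells, whose depth allows up to 0.375 CPM. The mTEChi and mTEClo pools overlapped for both genes. Fabp1 was found in 12.1% of WT mTEChi and 7.79% of adult cTEC, and Fabp2 in 13.1% and 3.90%.

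Vil1 (ENSMUSG00000026175, chromosome 1, 74409376 to 74435559) encodes villin, an actin-bundling protein of the brush border that tuft cells also contain. It reached 85.2, 2.38, 70.6 and 40.6 CPM in the WT mTEChi pools, 55.9 in Aire-KO and 31.7 in newborn mTEChi, and 11.1, 118.04 and 110 CPM in the WT mTEClo pools, so that 2 of the 3 mTEClo pools lay above all mTEChi pools. Its exons overlap those of Usp37 on the other strand. Vil1 reads were found in 56.8% of WT mTEChi, 42.6% of WT mTEClo and 23.4% of adult cTEC.

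Lypd8 (ENSMUSG00000013643, chromosome 11, 58379043 to 58390728) encodes a glycolipid-anchored protein of the colon epithelium that keeps bacteria from the mucosa. It reached 140.4, 122.02, 180.8 and 102.6 CPM in WT mTEChi, 125.7 in Aire-KO and 73.4 in newborn mTEChi, and 7.38, 18.7 and 11.97 CPM in WT mTEClo. All mTEChi pools lay above all mTEClo pools and above both cTEC pools, which held 7.44 and 2.74 CPM. Reads of near-identical family members could be shared with Lypd8, so its values carry that uncertainty. Lypd8 was found in 64.7% of WT mTEChi and 9.09% of adult cTEC.

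Per kilobase of exon, the mean level over the adult WT mTEChi pools (CPM per kb) was highest for Lypd8 at 106.3, followed by Hnf4g at 28.6, Apoa1 at 23.3, Apoa4 at 21.9, Vil1 at 14.0, Apob at 10.3, Fabp1 at 6.94, Fabp2 at 5.50 and Hnf4a at 2.70. From Hnf4g down, the mean ± SD of each gene overlapped that of the next, so the order of these neighbours is not set by the 4 pools.

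**Figure D2:**
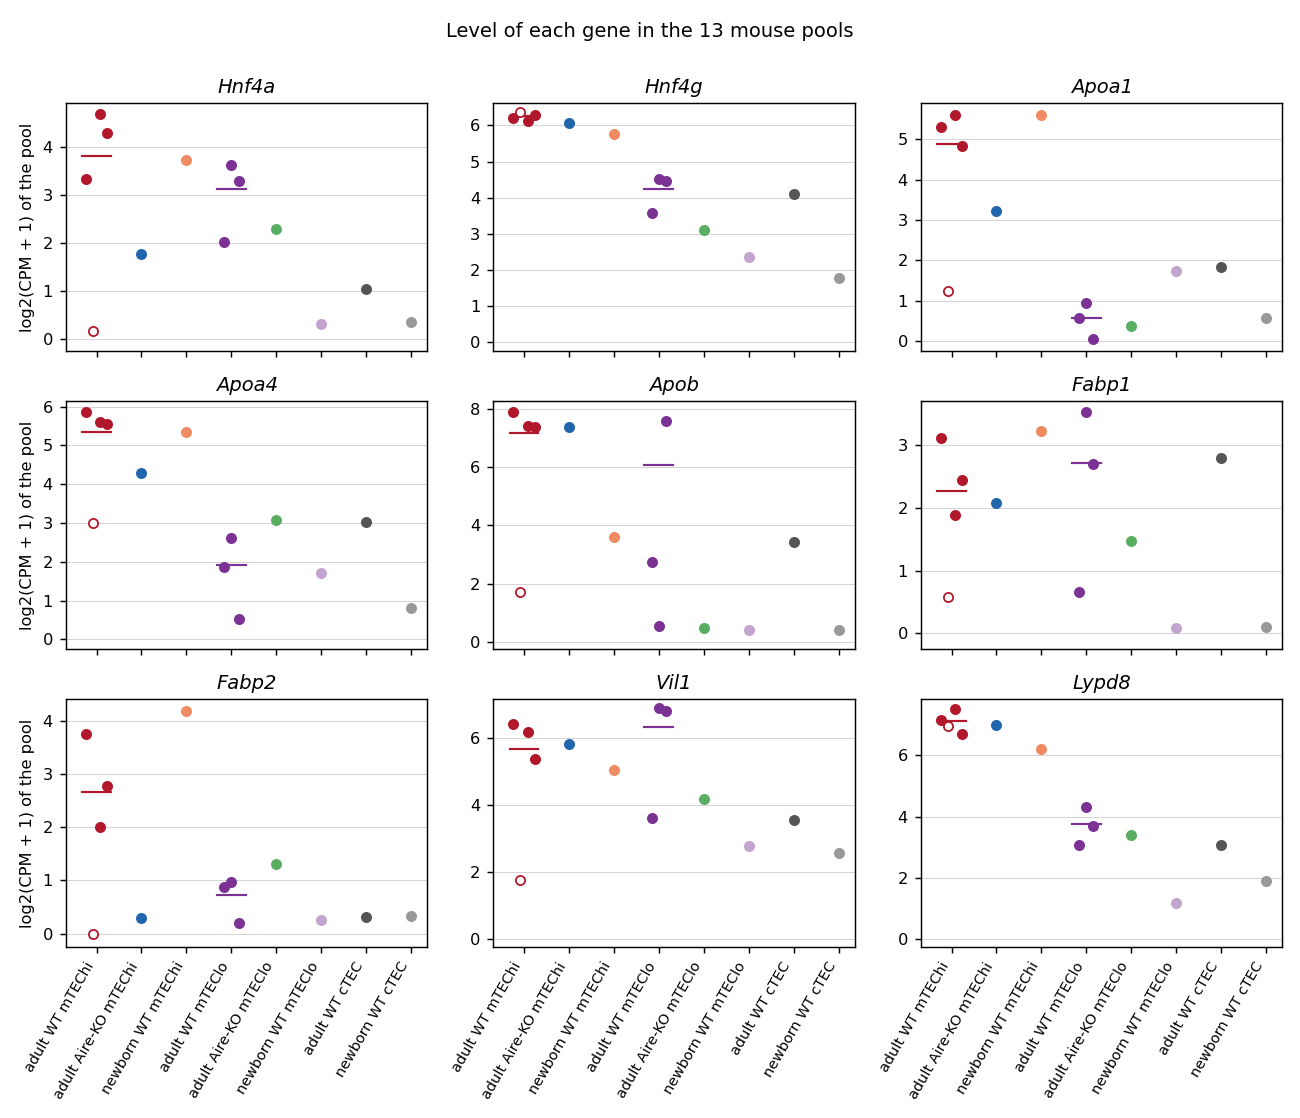
Level of each listed gene (y axis, log2 of CPM + 1) in each pool (points) by group (x axis), with a line at the mean over the pools of a group and an open circle for the adult WT mTEChi pool of 12 cells. Hnf4g, Apoa1, Apoa4 and Lypd8 separate all adult WT mTEChi pools from all WT mTEClo pools, and the Apob point of 192.4 CPM in WT mTEClo is experimental batch 2.

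Adult WT mTEChi were compared with WT mTEClo to ask which of the genes follow the MHC class II sort. Sort and batch cannot be told apart in this comparison. Lypd8, Hnf4g, Apoa1 and Apoa4 were higher in mTEChi. In edgeR's quasi-likelihood test with Benjamini-Hochberg adjustment over all 39971 genes, 4 of 9 genes passed, with a fold of at least 2 and an adjusted p under 0.05, against a background of 7.54% of all genes called higher and 4.13% lower. The log2 fold change was 3.26 (SE 0.34) for Lypd8, with an adjusted p of 0.00243, and 1.898 (SE 0.26) for Hnf4g, with an adjusted p of 0.00534. It was 5.67 (SE 1.35) for Apoa1, with an adjusted p of 0.0323, and 3.66 (SE 0.96) for Apoa4, with an adjusted p of 0.0424. The median of all genes was itself 0.30 with TMM scaling and 0.40 with DESeq2 size factors.

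The same 4 genes were those whose pools did not overlap between the sorts, both in CPM (16.1% of all genes lay higher in this way) and in shares of cells (14.9% of all genes). Without batches 1 and 2 the shares of Apob did not overlap either (5 of 9 genes, 17.8% of all genes). Hnf4a (log2 fold change 0.62, SE 1.10), Apob (0.99, SE 1.68), Fabp2 (2.82, SE 1.37), Fabp1 (-0.64, SE 0.99) and Vil1 (-0.81, SE 0.99) did not pass. The calls of Apoa1 and Apoa4 were less firm than those of Lypd8 and Hnf4g: both were lost when any single pool except mTEChi pool 2 was left out, with adjusted p of 0.0608 to 0.0884, and also without batches 1 and 2, where only Lypd8 and Hnf4g passed (3.41% of all genes higher). Without mTEChi pool 2, Fabp2 passed as well. Over batches in place of pools, a count that treats cells of the same mice as separate units, 5 genes passed (25.8% of all genes higher), Fabp2 being the addition. Over batches without batches 1 and 2, Apob passed too, with a log2 fold change of 5.49 and an adjusted p of 0.00125 in edgeR, and 23.3% of all genes were called higher.

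The shares of cells told less between single batches. Hnf4g was the only listed gene whose 9 WT mTEChi batches, at 60.0 to 81.8% of cells, all lay above the 5 WT mTEClo batches (8.14% of all genes did). Lypd8 overlapped, and the mTEClo batches 32 to 34 held it in 38.9 to 54.5% of cells, although at only 2.83 to 13.8 CPM.

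How the other genes varied with Hnf4g and Hnf4a from cell to cell was described within adult WT mTEChi, as Pearson correlations of log2(CPM + 1) across 620 cells. The cells share batches and depth, so no p is given. Hnf4g varied together with Vil1 (r = 0.39), Lypd8 (r = 0.34), Apoa4 (r = 0.30) and Fabp1 (r = 0.23), and each of these was above 0 in 8 of the 8 batches with at least 20 cells. Among 23208 genes, 0.0819% had a correlation with Hnf4g as high as that of Vil1, 0.263% that of Lypd8, 0.496% that of Apoa4 and 1.39% that of Fabp1. For Apoa1 and Fabp2 the correlations with Hnf4g were 0.11 and 0.06, within the 5th to 95th percentile of all genes, from -0.17 to 0.16. For Apob r was 0.11 with and 0.18 without batch 1, and within batches it was above 0 in 8 of 8, with a median of 0.20 (0.07 to 0.32).

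Hnf4a reached lower correlations than Hnf4g, but the 5th to 95th percentile of all genes was narrower too, from -0.08 to 0.09. Its highest correlations were with Apoa4 (r = 0.18), Vil1 (r = 0.16) and Lypd8 (r = 0.13), at or above which 0.121%, 0.297% and 0.810% of all genes lay, and its correlation with Hnf4g was 0.06. Within batches, the correlation of Hnf4a with Apoa4 ran from -0.05 to 0.51. The closest pairs among the 9 genes did not involve either receptor gene: Apoa1 with Apoa4 (r = 0.51) and Vil1 with Lypd8 (r = 0.49).

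WT mTEChi were split by whether a thinned cell held an Hnf4g read. Apoa4 was found in 49.1% of the cells with and 23.8% of the cells without Hnf4g reads, and Vil1 in 64.1% and 37.8%, each higher with Hnf4g in 8 of 8 batches. Lypd8 was found in 69.2% and 52.9% and Fabp1 in 14.7% and 5.23%, each higher in 7 of 8 batches. Apoa1 was found in 29.7% and 20.3% (higher in 6 of 8 batches) and Fabp2 in 14.1% and 10.5%. Apob was found in 50.7% and 45.3%, and in 45.2% and 33.8% without batch 1, where every cell held it, and was higher in 7 of 8 batches. In the level of reads, cells with Hnf4g held 101.3 CPM of Vil1, 68.4 of Apoa4 and 180.4 of Lypd8, against 15.2, 17.4 and 43.7 CPM in cells without. The cells with and without Hnf4g differed little in the median number of genes found (11144.5 and 11231) and in Aire level (1173.2 and 1244.9 CPM).

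Hnf4a and Hnf4g reads were found together in 6.77% of WT mTEChi, Hnf4a alone in 1.61%, Hnf4g alone in 65.5% and neither in 26.1%. The 52 cells with Hnf4a more often held Apoa4 (63.5% against 40.1% of the other cells), Vil1 (73.1% against 55.3%) and Lypd8 (78.8% against 63.4%), while Apob was found in 51.9% against 48.9% (47.9% against 41.6% without batch 1) and was higher in 3 of 8 batches. The cells with Hnf4a also differed in Aire, with a median of 634.8 against 1091.7 CPM in WT and 351.8 against 1623.9 CPM in newborn mTEChi. The part of the Aire level in these shares was not tested. In Aire-KO mTEChi, the 15 cells with Hnf4a reads held Apoa4 in 53.3% against 14.2% of cells and Vil1 in 80% against 39.9%, and their Apob level was 2470 against 59.6 CPM. These values rest on few cells.

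**Figure D3:**
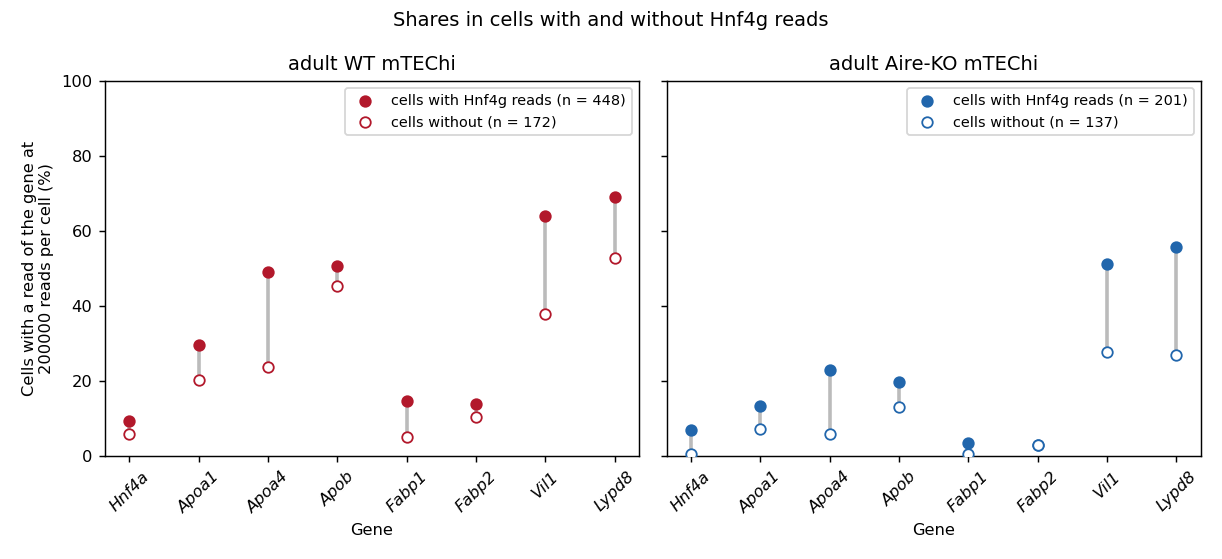
Share of cells with a read of each other listed gene (y axis, percent) among cells with and without an Hnf4g read. The panels are adult WT and Aire-KO mTEChi, each cell thinned to 200000 reads. In WT cells Vil1 stands at 64.1% with and 37.8% without Hnf4g and Apoa4 at 49.1% and 23.8%. The same direction holds for both genes in Aire-KO cells.

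The relation to Hnf4g was also seen in the other mTEChi groups and in adult mTEClo. Across cells of WT mTEClo pools 1 to 3, Hnf4g correlated with Lypd8 at 0.28, 0.58 and 0.41. The values were 0.34, 0.31 and 0.28 with Vil1 and 0.25, 0.40 and 0.35 with Apoa4. For Lypd8, Vil1 and Apoa4 they were 0.41, 0.31 and 0.26 in Aire-KO mTEClo and -0.04, 0.13 and 0.11 in newborn mTEClo. In Aire-KO mTEChi, Lypd8 was found in 55.7% of cells with and 27.01% of cells without Hnf4g reads, Vil1 in 51.2% and 27.7%, and Apoa4 in 22.9% and 5.84%, each higher with Hnf4g in 4 of 4 batches. The correlations with Hnf4g across Aire-KO cells were 0.42 for Lypd8, 0.42 for Vil1, 0.39 for Apoa4 and 0.23 for Fabp1. Among newborn mTEChi, Apoa4 was found in 44.4% with and 20.6% without Hnf4g, Vil1 in 58.3% and 36.5%, and Lypd8 in 47.2% and 25.4%, each in 5 of 5 batches. Newborn cells differed in that the correlations of Hnf4a, with Lypd8 (0.40), Vil1 (0.38) and Fabp2 (0.32), were not below those of Hnf4g with Apoa4 (0.31), Vil1 (0.21) and Lypd8 (0.16). The difference between newborn and adult correlations was not tested.

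Genes outside the set with the pattern most like Hnf4g across the 620 WT mTEChi were Cdhr5 (r = 0.52), Clrn3 (0.49), Xkr9 (0.47), Btnl4 (0.47) and Hmox1 (0.46). Cdhr5 encodes a protocadherin of the brush border and Hmox1 a heme-degrading enzyme. In Aire-KO mTEChi their correlations with Hnf4g were 0.37, 0.59, 0.59, 0.52 and 0.54. The genes most like Hnf4a were Fam183b (0.26), Slc3a1 (0.24), Gimd1 (0.23), Btbd17 (0.23) and Crocc2 (0.23), with correlations of -0.04, 0.13, 0.29, 0.07 and -0.04 in Aire-KO cells. The likeness to Hnf4g was thus found again in the other genotype for all 5 genes, and that to Hnf4a near its WT size for Gimd1 alone.

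Aire-KO and WT mTEChi were compared to ask how far the 9 genes depend on Aire. The shares of cells with a read were lower in Aire-KO for all 9 genes. Apob was found in 49.2% of WT and 17.2% of Aire-KO cells (exact interval 13.3 to 21.6), Apoa4 in 42.1% and 16.0% (12.2 to 20.3), Lypd8 in 64.7% and 44.1% (38.7 to 49.6) and Apoa1 in 27.1% and 10.9% (7.83 to 14.8). Vil1 stood at 56.8% and 41.7%, Hnf4g at 72.3% and 59.5%, Fabp1 at 12.1% and 2.37%, Fabp2 at 13.1% and 2.96% and Hnf4a at 8.39% and 4.44%. Shares were also lower in Aire-KO for 63.8% of all genes, with a median difference of -0.511 percentage points against -15.1 for the 9 genes. These medians are not matched for the share in WT, and a gene found in few WT cells cannot fall by many points. They thus do not show that the fall is particular to the 9 genes. The Aire-KO shares of Fabp1 and Fabp2 were below those of adult cTEC (7.79% and 3.90%) and near those of newborn cTEC (2.16% and 2.88%), and no difference is read from shares this low. Single cells held more: the highest Aire-KO mTEChi reached 246.3 CPM of Fabp1, and 5 of the 6 adult cTEC with Fabp1 held 5 or more reads. The median depth before thinning was 812728 reads in Aire-KO and 772240 in WT mTEChi. After thinning, the median number of genes per cell was 10445 to 10933 in the Aire-KO batches and 10425 to 11442.5 in the WT batches. Apob stood at 42.2% in WT without batch 1.

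No listed gene separated the genotypes batch by batch. The 4 Aire-KO batches ran from 8.14 to 38.3% for Apob, 3.57 to 32.1% for Apoa4, 7.14 to 13.6% for Apoa1, 16.7 to 77.8% for Lypd8, 26.2 to 53.1% for Vil1 and 39.3 to 74.7% for Hnf4g. The 9 WT batches ran from 23.6 to 100% for Apob, 24 to 66.7% for Apoa4, 5.33 to 53.3% for Apoa1, 30.7 to 78.7% for Lypd8, 34.7 to 81.2% for Vil1 and 60.0 to 81.8% for Hnf4g. The ranges of the genotypes overlapped for 9 of 9 genes, while 2.32% of all genes lay lower in every Aire-KO batch than in any WT batch and 1.24% higher. Aire-KO batches differed widely among themselves, and Lypd8 was found in 77.8% of the cells of batch 7 and 16.7% of those of batch 14.

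**Figure D4:**
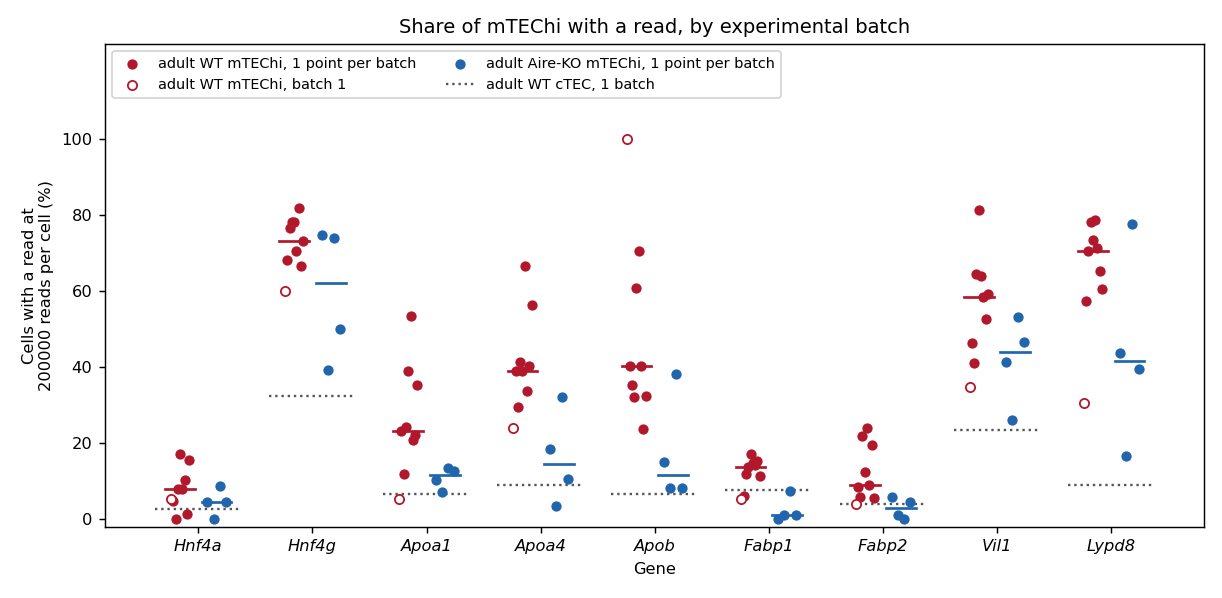
Share of cells with a read of each listed gene (y axis, percent, each cell thinned to 200000 reads) in each experimental batch (points) of adult WT and Aire-KO mTEChi. A line marks the median of the batches, an open circle batch 1 and a dotted line the adult cTEC share. The Aire-KO medians lie below the WT medians while the ranges of the batches overlap for all 9 genes.

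The number of listed genes per cell moved in the same direction. None of the 9 genes had a read in 15 of 620 WT mTEChi (2.42%) and 62 Aire-KO mTEChi (18.3%), and at least 5 were found in 27.6% of WT and 7.99% of Aire-KO cells. The median was 3 genes per WT cell and 2 per Aire-KO cell.

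The summed levels followed the shares only in part. For Lypd8 the Aire-KO level of 125.7 CPM lay among the 4 WT pools (102.6 to 180.8). The cells with a read held a median of 43.6 CPM in Aire-KO and 21.2 in WT, and at 5 or more reads the shares were 27.2% and 31.8%. For Apob, 2 Aire-KO cells held 50% of the reads and the highest reached 18472 CPM, with 32.6% of them, so that the pool sum of 167.6 CPM rested on few cells. Cells with at least 1000 CPM of Apob numbered 30 of 620 in WT and 6 in Aire-KO. Among cells with a read, the median level of Apoa4 was 34.0 CPM in WT and 15.3 in Aire-KO, that of Apob 43.01 (14.5 without batch 1) and 14.8, and that of Hnf4g 57.6 and 51.9.

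In the test over pools, 0 of 9 genes passed between Aire-KO and WT mTEChi, and 0% of all 39971 genes did. With age and sex as a replicate block, Apob was called higher in Aire-KO (log2 fold change 6.95, SE 0.59), opposite in direction to its shares of cells. The only WT mTEChi pool in the block of the Aire-KO pool is pool 2, with 12 cells and 2.25 CPM of Apob. Without adjustment 3.19% of all genes had p under 0.05 and were lower in Aire-KO and 1.18% were higher, none of the 9 among them. DESeq2 called 1.49% of all genes lower and 0.0909% higher, limma called 1 lower and 10 higher, and neither called a listed gene. Aire itself, the targeted gene, had a log2 fold change of -5.69 (SE 0.57) with an edgeR adjusted p of 0.239, at 26.1 CPM in the single Aire-KO pool.

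The log2 fold changes of the 9 genes over pools were -0.06 (SE 0.36) for Hnf4g, 0.01 (SE 0.44) for Lypd8, 0.29 (SE 1.43) for Vil1, 0.34 (SE 2.35) for Apob, -0.14 (SE 1.47) for Fabp1, -0.99 (SE 1.29) for Apoa4, -1.67 (SE 1.72) for Apoa1, -2.31 (SE 1.88) for Hnf4a and -4.40 (SE 2.46) for Fabp2. The standard errors of Hnf4g and Lypd8 were under 0.5 and the others over 1. Over batches in place of pools, Fabp2 was called lower, with a log2 fold change of -5.17 (SE 1.44) and an edgeR adjusted p of 0.0284, where 4.44% of all genes were lower. Without batches 1 and 2 it was -5.33 (SE 1.40), with an edgeR adjusted p of 0.0210 and 4.6% of all genes lower. Batches may share mice, so that p does not measure the spread between mice.

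Sums of cell type markers differed with genotype, mostly through single genes. The summed level of 4 mature mTEC markers was 2121 CPM in Aire-KO mTEChi and 3139 to 4427 CPM in the WT pools, and over all cells of the sort Aire, the deleted gene, stood at 26.1 against 1193.3 CPM, while Cd80 (297.9 against 251.8), Fezf2 (362.3 against 387.7) and H2-Aa (1435.1 against 1461.9) differed little. Immature mTEC markers summed to 845.6 against 555.8 to 742.4 CPM, with Itga6 at 746.5 against 604.5 and Krt5 at 91.4 against 96.8. Neuroendocrine markers summed to 304.4 against 158.7 to 238.6 CPM, with Insm1 at 283.6 against 157.7, Chga at 20.7 against 36.8 and Neurod1 at 0.024 against 3.23. Microfold cell markers summed to 346.4 against 411.5 to 569.1 CPM and tuft markers to 53.6 against 46.7 to 352.7. The part of these markers in the shares of the 9 genes was not tested.

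In the mTEClo sort, 0 of 9 genes passed between Aire-KO and WT over pools (0% of all genes, with 2.14% higher and 1.41% lower at an unadjusted edgeR p under 0.05). Hnf4g had a log2 fold change of -1.18 (SE 0.40) and was found in 18.2% of Aire-KO against 40.3% of WT mTEClo, and Lypd8 had -0.35 (SE 0.47), with 5.19% against 36.1% of cells. In WT pools 1 to 3 the shares were 37.8, 37.8 and 51.5% for Hnf4g and 45.6, 25.7 and 16.7% for Lypd8. Of these, pool 2 shares the age of the Aire-KO mice, 5 weeks. No background over all genes is given for these shares. Apob was at -7.31 (SE 3.93), and at -3.02 (SE 2.39) without batches 1 and 2.

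Newborn and adult WT mTEChi were compared for age. Apob was found in 13.5% of newborn cells and 49.2% of adult cells (42.2% without batch 1), and the 5 newborn batches, at 0 to 20.0%, lay below the 9 adult batches, at 23.6 to 100%. Of all genes, 0.373% lay lower in newborn batches in this way, and the other 8 listed genes overlapped. The newborn pool held 11.1 CPM of Apob, below adult pools 1, 3 and 4 and above pool 2 with 2.25 CPM. Over pools 0 of 9 genes passed (0% of all genes, with 0.503% lower and 1.51% higher at an unadjusted edgeR p under 0.05), with Apob at a log2 fold change of -3.66 (SE 3.13). Over batches it was -4.36 (SE 1.27) with an edgeR adjusted p of 0.0515, and without batches 1 and 2 it was -4.33 (SE 1.06) with an adjusted p of 0.0198 and 1.17% of all genes called lower. Apoa1 (31.6% and 27.1%), Hnf4a (11.1% and 8.39%), Fabp1 (12.3% and 12.1%) and Fabp2 (19.3% and 13.1%) were found in at least as large a share of newborn as of adult cells, and Lypd8 in a smaller one (39.2% and 64.7%, or 69.4% without batch 1).

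Other genes of the same tissues were counted in lists. Between WT mTEChi and mTEClo, 6 of 24 further enterocyte genes were higher over pools in edgeR, beside 7.54% of all genes, among them Alpi, intestinal alkaline phosphatase (log2 fold change 6.97), Mep1b, a brush border protease (4.27), and Apoc3 (4.14). Of 23 liver genes 9 were higher, led by Cps1, an enzyme of the urea cycle (6.93), Itih3 (6.27) and Apoh (5.94). Of 22 gut and liver transcription factors, 3 were higher and 1 lower (4.13% of all genes were lower). Nr1h4, the bile acid receptor (6.11), and Gata5 (5.72) were among those higher and Klf5 (-1.60) was lower. The median log2 fold change was 2.20 over the enterocyte list, 4.00 over the liver list and 0.60 over the factors, beside 1.898 over the 9 genes and 0.30 over all genes. Without batches 1 and 2, 4 enterocyte genes, 4 liver genes and 0 factors passed, beside 3.41% of all genes higher.

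Along the apolipoprotein cluster on chromosome 9, 3 of 8 genes were higher in mTEChi, Apoa1, Apoa4 and Apoc3, beside 7.54% of all genes. Apoa1 and Apoa4 are also among the 9 listed genes. Without batches 1 and 2, 0 of the 8 passed, beside 3.41% of all genes higher. Apoa5 had a log2 fold change of 4.93 and an edgeR adjusted p of 0.106. The neighbours Sik3 (-0.07), Zpr1 (-0.15), Bud13 (-0.13) and Pafah1b2 (-0.32), which are expressed in most tissues, did not pass. The genes that passed with all batches kept were apolipoprotein genes, and the log2 fold changes of these 4 neighbours lay below the median of all genes.

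Between Aire-KO and WT mTEChi, 0 genes of each list passed over pools in edgeR, and the median log2 fold change was -0.34 over the enterocyte genes, -2.46 over the liver genes, -0.61 over the factors and -0.16 over all genes. Among the genes of highest level, Reg3g, an antibacterial lectin of the gut, stood at -0.24 (SE 0.35), Cdh17, a gut cadherin, at 0.86 (SE 0.88) and Mep1a at -0.25 (SE 0.76). The liver genes Serpinc1 (antithrombin), Tdo2 and Mat1a stood at -1.01 (SE 0.56), -1.22 (SE 1.71) and -3.60 (SE 0.93), and the factors Cdx1 and Cebpa at 0.01 (SE 0.81) and 0.23 (SE 0.47). In the apolipoprotein cluster, Apoc3 stood at -0.13 (SE 1.2), Apoa5 at -6.47 (SE 3.36), Sik3 at 0.62 (SE 0.43), Zpr1 at 0.11 (SE 0.31), Bud13 at -0.23 (SE 0.53) and Pafah1b2 at 0.05 (SE 0.27).

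Over batches in edgeR, 3 enterocyte genes (Reg3b, Phgr1 and Alpi), 6 liver genes (Fgg, Fga, Alb, Fgb, Itih3 and Mat1a), 2 factors (Cdx2 and Klf5) and Apoa5 were called lower in Aire-KO, beside 4.44% of all genes, and these were named after their values were seen. Reg3b, Alb, Fga and Fgg had reads in 0 thinned Aire-KO mTEChi, which allows a share of up to 0.888%, and in 10.8%, 8.71%, 4.35% and 11.8% of WT mTEChi. Alpi was found in 2.07% of Aire-KO and 12.3% of WT mTEChi. Sis, the disaccharidase sucrase-isomaltase, was found in 21.6% and 22.4% and Mttp, which loads lipid on apolipoprotein B, in 86.98% and 84.03%.

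In adult WT mTEClo, Hnf4a was concentrated in cells with a high sum of neuroendocrine markers. Neuroendocrine markers (Neurod1, Chga and Insm1) summed to at least 100 CPM in 31 cells, 8.68% of the sort. Over the sort Chga stood at 44.1 CPM, Insm1 at 36.1 and Neurod1 at 0.816. Hnf4a was found in 48.4% of these cells and 3.99% of the others, and these cells held 77.4% of the Hnf4a reads of the sort. By pool, 2 of 5, 8 of 13 and 5 of 13 marked cells held Hnf4a, and at a mark of 500 CPM the shares were 57.1% of 14 cells and 5.83% of the others. Vil1 was found in 80.6% and 39.0%, Hnf4g in 70.97% and 37.4% and Lypd8 in 64.5% and 33.4% of cells with and without the markers, whereas Apoa4 was found in 3.23% and 17.5%. In Aire-KO mTEClo, 7 cells were so marked, and Hnf4a was found in 57.1% of them and 2.04% of the others. With the same mark, Hnf4a was found in 8.28% of marked and 8.51% of other WT mTEChi, 2.34% and 10.98% of Aire-KO mTEChi, 7.69% and 13.98% of newborn mTEChi, and 0 and 3.48% of newborn mTEClo. The mark was met by 54.5% of WT and 75.7% of Aire-KO mTEChi. Insm1 was found in 87.9% and 95.9% of these groups and Neurod1 in 2.26% and 0.296%. In mTEChi the mark thus does not single out neuroendocrine cells, and the sorts are not compared on like cells.

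Fabp1 followed the summed level of markers of microfold cells (Spib, Gp2 and Ccl20), which sample antigens in the gut epithelium. Over WT mTEClo the sum was mostly Spib, at 321.9 CPM, with Gp2 at 87.2 and Ccl20 at 19.6. Spib was found in 88.8% of WT mTEClo, and 78.1% of WT mTEChi reached a sum of 100 CPM. The mark thus does not single out microfold cells. The markers summed to at least 100 CPM in 51.5% of WT mTEClo. Fabp1 was found in 16.8% of these cells and 3.47% of the others, and the marked cells held 98.3% of its reads. At 500 CPM the shares were 30.5% of 82 cells and 4.36% of the others. In Aire-KO mTEClo the shares of Fabp1 were 9.41% and 1.45%, and 36.2% of its reads lay in the marked cells, and 1 cell held 63.2% of all its reads in the group.

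**Figure D5:**
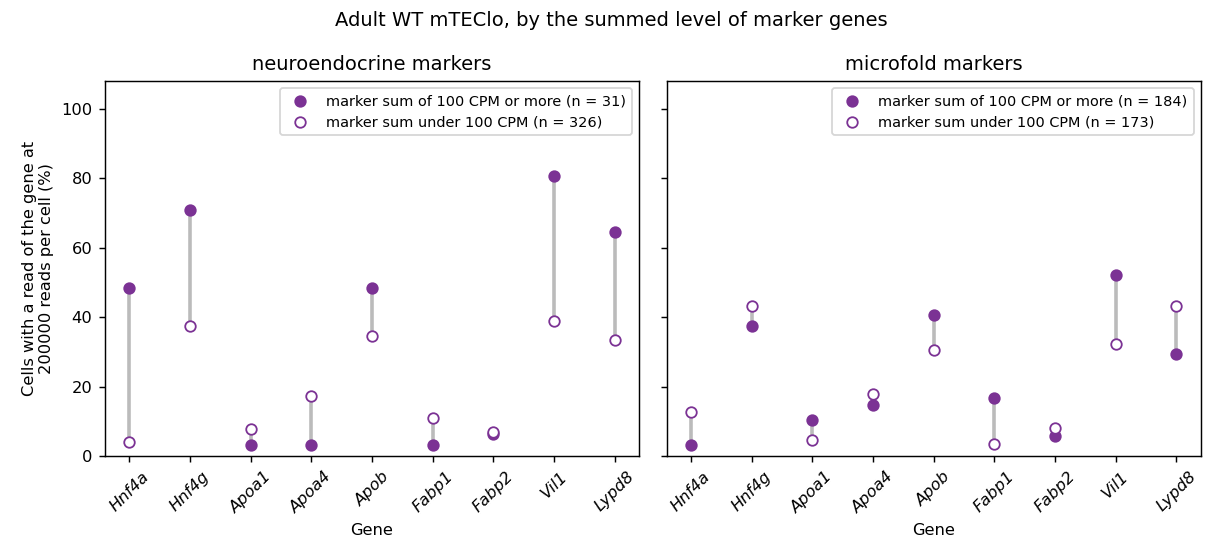
Share of adult WT mTEClo with a read of each listed gene (percent) among cells whose neuroendocrine markers or microfold markers sum to at least 100 CPM and among the other cells. Hnf4a stands at 48.4% and 3.99% for the neuroendocrine markers and Fabp1 at 16.8% and 3.47% for the microfold markers.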

How the data were processed

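Per the labels and the study's methods, the authors trimmed reads with fastp 0.20.0, mapped them to mm10 with STAR 2.7.3a, removed unmapped and poorly mapped reads with SAMtools 1.9 and duplicates with Picard 2.21.1, and counted reads per Ensembl gene with HTSeq 0.11.2 without regard to strand. The deposited whole-number counts of 1980 cells (2148 samples, since 168 cells had 2 runs) were used. They were 620 adult WT mTEChi (444, 12, 82 and 82 in pools 1 to 4), 357 adult WT mTEClo (217, 74 and 66 in pools 1 to 3), 338 Aire-KO mTEChi, 154 Aire-KO mTEClo, 77 adult cTEC, and 171 mTEChi, 124 mTEClo and 139 cTEC of newborns. How the runs were joined is not given in the sources used here. Cells above 200000 reads on genes had been kept by the authors. Their deposited length-scaled table, a score, was not used.

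Counts were summed over the 11 mTEC pools and fitted in edgeR 4.0.16 under R 4.3.3 by quasi-likelihood, after filterByExpr and TMM scaling, on 5 residual degrees of freedom. A group of 1 pool was assumed to vary like the others. The test was 2-sided, and a gene was called where the fold was 2 or more and the p, adjusted after Benjamini-Hochberg, was under 0.05. The cTEC pools were described without a test. Alternatives used DESeq2 1.42.0 and limma 3.58.1, among 51 planned and 10 chosen after seeing the data. The fit was tested on simulated data. Thinning (seed 7), shares with exact (Clopper-Pearson) intervals, correlations and motif searches used Python 3.11.15, numpy 2.4.6, scipy 1.17.1 and pandas 2.3.3.

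The 9 genes and the other lists were chosen with earlier results of these data known. From each other list, the up to 3 called genes of largest fold were named or, where none was called, the 3 of highest level in adult WT mTEChi. The whole apolipoprotein cluster was named as well, and for Hnf4a and Hnf4g the 5 protein-coding genes of highest correlation, with reads in at least 10% of cells, predicted genes passed over. A result that the rule would name is not reported here. No 2 cells held identical counts.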

Additional observations from a re-analysis of the deposited data

How the results depend on the processing

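Between Aire-KO and WT mTEChi, the number of listed genes called was 0 over pools and 1 over batches (Fabp2), also 1 over batches with batches 1 and 2 left out (Fabp2, an alternative chosen after seeing the data). With age and sex as a replicate block, which leaves 1 residual degree of freedom, it was 1: Apob was called higher, with a log2 fold change of 6.95 (SE 0.59) and an edgeR adjusted p of 9.09e-05, against a WT mTEChi pool of 12 cells. Between WT mTEChi and mTEClo, 4 were called over pools, 2 with the replicate block (Lypd8 and Hnf4g), 2 without batches 1 and 2, and 2 to 5 when 1 pool was left out. For newborn against adult mTEChi, 0 were called over pools and 1 over batches with batches 1 and 2 left out (Apob). The newborn comparison with the block could not be fitted, because no adult pool shares its age label. Causes of these changes were not tested. The block pairs pools by labels and not by mice.

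No listed gene was called higher under 1 setting and lower under another in the same comparison. Some log2 fold changes that were not called changed sign. Between Aire-KO and WT mTEChi, 3 of the 9 were positive and 6 negative over pools, against 0 and 9 over batches. Between WT mTEChi and mTEClo, 7 were positive and 2 negative over pools, against 9 and 0 over batches. Of the shares of cells with a read, 6 moved beyond their interval without thinning and 9 at 5 or more reads. For example, Lypd8 in WT mTEChi went from 64.7% to 80.6% and 31.8%. Depth limits the shares, since a cell without a read at 200000 reads may hold the transcript.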

Other observations

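Among the 77 adult WT cTEC, 1 cell held reads of 8 of the 9 genes, all 8 of them at 5 or more reads. This cell carried 86.8% of the Apoa1 reads and 93.8% of the Apob reads of the group. Its cTEC markers summed to 365.3 CPM, against a median of 3044 CPM in the other cells, and its mature mTEC markers to 1699.02 against 997.4 CPM. Over the group the mature mTEC sum was mostly H2-Aa, at 970.9 CPM, with Aire at 3.57, Cd80 at 11.2 and Fezf2 at 20.8. H2-Aa was lower in WT mTEClo (636.9 CPM), so this sum does not single out mature mTEC. The median cell of the group held 0 of the 9 genes, and 5 cells held 5 or more. Among newborn cTEC no cell held more than 4.

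In adult WT mTEClo, Vil1 varied together with the summed tuft markers (r = 0.36 across cells) and the microfold markers (r = 0.34), and in the opposite direction to the immature (r = -0.57) and mature mTEC markers (r = -0.44). The tuft markers summed to 4179 and 4638 CPM in pools 2 and 3, where Vil1 stood at 118.04 and 110 CPM, and to 526.4 CPM in pool 1, where Vil1 stood at 11.1 CPM. Within this sort Hnf4a varied with Vil1 (r = 0.37) and Lypd8 (r = 0.25), and Fabp1 with Vil1 (r = 0.41). These correlations are across cells that share batches and depth. The part of the tuft markers in the level of Vil1 was not tested.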
